A study of Mus musculus with 6 samples.

Results

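The Rab genes encode small GTPases that mark the membranes of the secretory and endocytic routes, and their RNA was examined here in the hippocampus of 12-month-old C57BL/6 mice. The members were all rows whose symbol is Rab followed by a number and at most 1 letter, which gave 59 of 24346 gene symbols. The 3 TonEBP+/- libraries (HET 1 to HET 3) came from mice with a single disrupted allele of Nfat5, the gene of the transcription factor TonEBP, and the 3 wild-type libraries (WT 1 to WT 3) from littermates. Both genotypes had been bred onto C57BL/6J, and the labels name no treatment, no sex and no site of the disruption. No label says whether the numbered samples are separate animals, and the p-values then cover only the spread between them, which may be technical.

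A Rab protein cycles between a GDP-bound form, which the chaperone GDI holds in the cytosol, and a GTP-bound form on a membrane, where it recruits motors, tethers and fusion factors. Exchange factors load the GTP, GTPase-activating proteins end the active state, and a prenyl tail added by Rab geranylgeranyl transferase with an escort protein anchors the Rab in the membrane. In neurons, Rab3 proteins sit on synaptic vesicles, Rab5 on early endosomes, Rab4 and Rab11 on recycling endosomes that return receptors to the surface, Rab7 on late endosomes, and Rab1, Rab2 and Rab6 on membranes of the endoplasmic reticulum and the Golgi apparatus.

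Levels are given in FPKM (fragments per kilobase, scaled by library depth), read from the deposited log2 values. Steps between low values correspond to an estimated 8200000 to 12900000 fragments in a library. Hippocampal markers, 14 of 15 above the filter on low values, summed to 1032 to 1169 FPKM in HET and 985 to 1179.7 FPKM in WT. This sum rests mostly on Camk2a (means of 357 FPKM in HET and 390 FPKM in WT) and Nrgn (324 FPKM in HET and 306 FPKM in WT). Nfat5 was at 8.25, 9.31 and 8.42 FPKM in HET and 10.5, 8.39 and 9.72 FPKM in WT, so that the genotypes overlapped. Since a disrupted allele can still be transcribed, this does not check the labels, and every direction given here is that of the labelled libraries. Markers of adjacent tissue varied: the sum of 15 thalamus and habenula markers was 325, 182 and 178 FPKM in HET and 292, 321 and 299 FPKM in WT, and that of 10 choroid plexus markers 1816, 99.9 and 3494 FPKM in HET and 1073, 2919.8 and 287 FPKM in WT. Of 13 meningeal fibroblast markers, all 10 tested had a positive difference (median 0.18 on the log2 scale, 0 past the adjusted limma test), and the list summed to 68.3, 112 and 102 FPKM in HET and 72.0, 86.7 and 65.0 FPKM in WT. HET 2 was low in oligodendrocyte markers (4559.9, 3258 and 4336 FPKM in HET and 4034, 4266 and 4265 FPKM in WT). Of 10 neuron markers, 3 had a positive and 7 a negative difference (median -0.06). They summed to 2118, 2301.9 and 2074.7 FPKM in HET and 2302.1, 2129.8 and 2308.6 FPKM in WT. A part of neuron content in the Rab differences was not tested.

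Of the 59 Rab genes, 54 reached 1 FPKM in at least 3 libraries and were tested among 13122 genes. No Rab gene differed between genotypes at an adjusted p of 0.05 (limma, Benjamini-Hochberg over the whole table, smallest adjusted p of a Rab gene 1.00), and over all genes that rule called 0, or 0%. At an unadjusted p under 0.05, limma called 3 Rab genes: Rab26 and Rab3b, higher in HET, and Rab4a, lower in HET. These are 5.56% of the Rab genes tested, beside 3.69% of all genes (1.85% higher and 1.84% lower in HET). All 3 HET values lay apart from all 3 WT values in 5 Rab genes, above them in Rab26 and below them in Rab3c, Rab5a, Rab4a and Rab10. These are 9.26% of the Rab genes tested, beside 8.52% of all genes (4.13% higher and 4.39% lower in HET), so both shares lie near the background.

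The 95% interval of the log2 difference (HET minus WT) lay within 0.3 of 0 in 36 of the 54 Rab genes and within 0.5 in 49. The median standard error was 0.0838 over the Rab genes and 0.0991 over all genes tested. Differences were negative in 35 and positive in 19 Rab genes, with a median of -0.03, beside 50% positive and a median of -5.0e-06 over all genes. With 1 library left out, the negative ones numbered 29 (without HET 1) to 36 (without WT 3), and 30 with the thalamus marker mean as a covariate. They also varied with the scaling of libraries, at 39 with median scaling and 32 with quantile normalization. The two-sided exact permutation test given for single genes cannot go below 0.1 with 3 against 3 libraries.

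Promoters are shown for the genes that these rules single out and that the RefSeq table (GRCm38.p6) holds, which are Rab3c, Rab5a, Rab10 and Rab3b. Each window runs from 250 bases before to 50 bases after a RefSeq transcript start, 5′ to 3′ on the strand of the gene. The window of Rab3c, whose start lies inside the annotated gene, is chr13:110280157-110280456 on the minus strand, that of Rab5a chr17:53478984-53479283 on the plus strand, that of Rab10 chr12:3309920-3310219 on the minus strand and that of Rab3b chr4:108878820-108879119 on the plus strand. Capitals mark every match on either strand to TGGAAA (the core of the TonE element that TonEBP binds), the TonE consensus, GGGCGG (the GC box), CCAAT (bound by the factor NF-Y), TATAAA (the TATA box), CACGTG (the E-box), the palindromic CLEAR element of lysosomal genes, which contains CACGTG, and TGACGTCA (the cAMP response element).
Rab3c: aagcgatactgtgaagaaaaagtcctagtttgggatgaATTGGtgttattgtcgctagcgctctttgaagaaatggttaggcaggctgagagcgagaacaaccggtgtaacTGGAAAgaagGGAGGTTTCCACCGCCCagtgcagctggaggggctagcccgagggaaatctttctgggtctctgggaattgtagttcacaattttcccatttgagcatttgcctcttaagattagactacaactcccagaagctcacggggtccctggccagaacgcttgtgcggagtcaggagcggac
Rab5a: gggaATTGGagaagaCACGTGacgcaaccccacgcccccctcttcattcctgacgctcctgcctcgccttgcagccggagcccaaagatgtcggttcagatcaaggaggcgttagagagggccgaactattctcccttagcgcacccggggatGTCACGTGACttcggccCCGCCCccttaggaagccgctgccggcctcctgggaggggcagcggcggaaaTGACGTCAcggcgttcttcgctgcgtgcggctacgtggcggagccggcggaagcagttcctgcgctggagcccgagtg
Rab10: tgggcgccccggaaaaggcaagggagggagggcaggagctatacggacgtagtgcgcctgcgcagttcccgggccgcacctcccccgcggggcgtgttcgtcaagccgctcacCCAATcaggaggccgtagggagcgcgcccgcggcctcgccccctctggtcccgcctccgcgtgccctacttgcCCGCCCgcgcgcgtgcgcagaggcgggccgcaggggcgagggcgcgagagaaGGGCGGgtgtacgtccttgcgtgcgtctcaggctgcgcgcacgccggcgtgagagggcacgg
Rab3b: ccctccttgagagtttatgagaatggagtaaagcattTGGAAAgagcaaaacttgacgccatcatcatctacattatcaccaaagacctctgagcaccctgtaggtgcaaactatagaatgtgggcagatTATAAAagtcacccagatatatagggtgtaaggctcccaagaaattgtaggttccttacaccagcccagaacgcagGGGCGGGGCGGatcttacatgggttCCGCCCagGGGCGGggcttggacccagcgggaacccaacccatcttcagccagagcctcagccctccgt

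The Rab3c window held 2 TGGAAA cores, of which that on the opposite strand lay in a match to the TonE consensus with its left end 129 bases before the start, beside 1 GC box and 1 CCAAT. The Rab5a window held no TGGAAA. It held a CLEAR element 97 bases before the start, a second CACGTG 235 bases before it, TGACGTCA 28 bases before it, 1 GC box and 1 CCAAT. The Rab10 window held 2 GC boxes and 1 CCAAT, and the Rab3b window 1 TGGAAA, 1 TATAAA and 4 GC boxes, of which 2 overlapped.

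Over the 60 windows of 48 Rab genes in the table, TGGAAA occurred in 12 (20.0%), against 21.43% of all 32851 windows of this length. The TonE consensus occurred in 3 (5.0%: Rab3c, Rab17 and Rab34), against 4.96% of all windows. GGGCGG was found in 68.33% of Rab windows and 35.66% of all windows. CCAAT was found in 43.33% of Rab windows and 37.41% of all, and TATAAA in 6.67% of Rab windows and 13.62% of all. CACGTG occurred in 6 of 60 Rab windows and 7.15% of all. The CLEAR element occurred in 5.0% of Rab windows (Rab5a, Rab21 and Rab24) and 0.33% of all, and TGACGTCA in 3.33% of Rab windows (Rab5a and Rab25) and 1.79% of all. Median GC content was 61.17% in Rab windows and 52.67% in all. The windows of all 27025 genes were not matched to Rab windows in GC content or gene type. A gene with several windows counts more than once, so these contrasts cannot be read as particular to Rab genes. No share was tested, and a match describes letters in the window, not binding.

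Rab levels spanned a wide range. The highest were Rab6a, Rab2a, Rab3a, Rab6b, Rab7 and Rab3c, the 6 genes with means of at least 100 FPKM, which held 42.19% of the summed Rab level. The 9 highest held 52.77%. Means were at least 10 FPKM in 37 and at least 50 FPKM in 13 of the 59 genes, and 50 genes were at 1 FPKM or more in every library. Under the filter lay Rab7b, Rab19, Rab25, Rab44 and Rab17, the last of these listed at 0 in all 6 libraries.

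**Figure D1:**
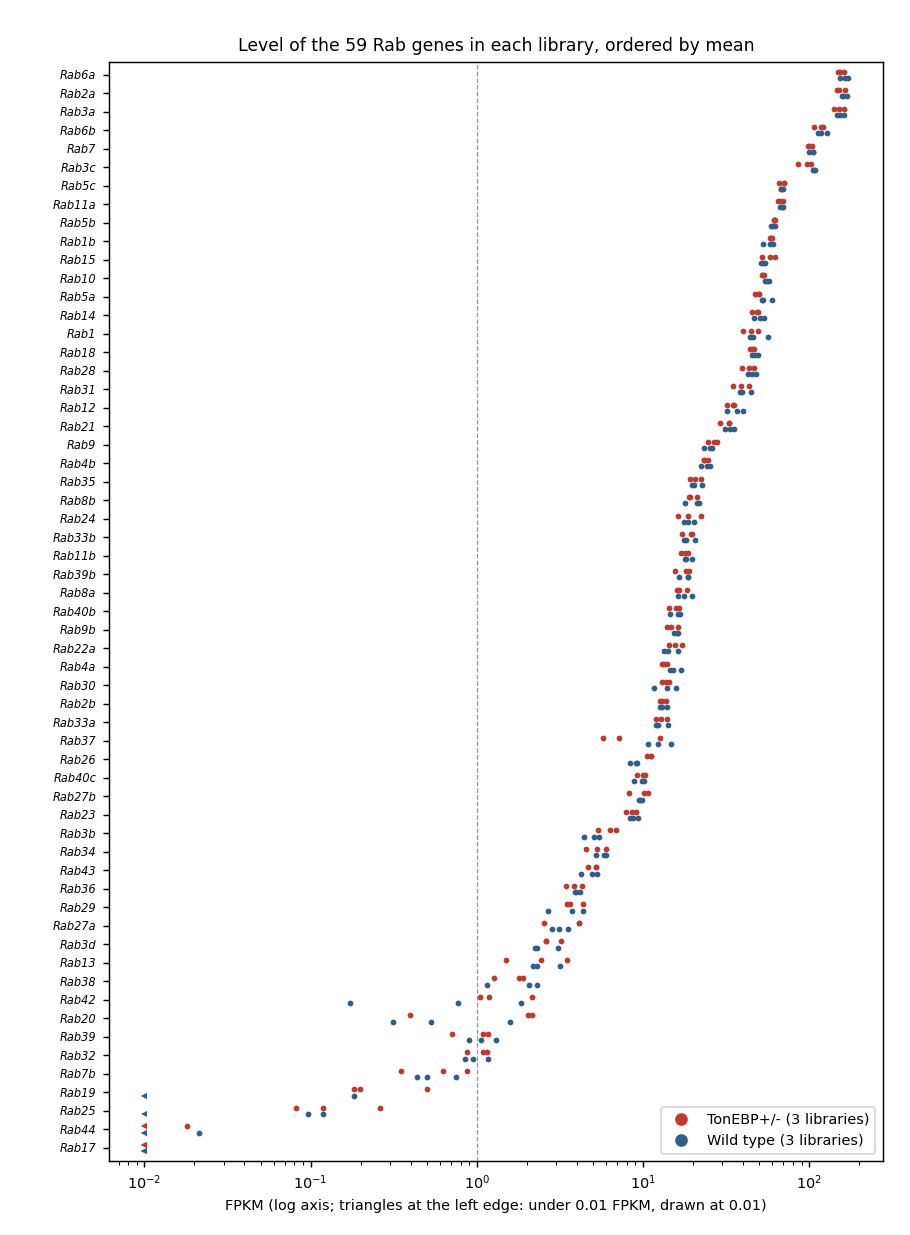
FPKM of the 59 Rab genes on a log axis in 3 TonEBP+/- libraries (upper points of a row) and 3 wild-type libraries (lower points), ordered by the mean of all 6; the dashed line is 1 FPKM and triangles are values under 0.01 FPKM. Levels run from means above 150 FPKM in Rab6a, Rab2a and Rab3a to 0 in Rab17.

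The 59 genes summed to 1822, 1868 and 1831 FPKM in HET and 1926, 1886 and 1886 FPKM in WT. All HET sums were below all WT sums, at a ratio of 0.969. As a percentage of the summed level of protein-coding genes the Rab sum was 0.504, 0.539 and 0.516% in HET and 0.556, 0.512 and 0.542% in WT, and there the genotypes overlapped. Each role held a similar part of the Rab sum in both genotypes. Genes of the endoplasmic reticulum and Golgi held 35.8 ± 0.275% in HET and 36.0 ± 0.463% in WT (SD, n = 3 each), those of recycling and surface transport 18.5 ± 0.190% in HET and 18.3 ± 0.255% in WT, and those of secretory and synaptic vesicles 15.6 ± 0.630% in HET and 16.0 ± 0.683% in WT. Early endosome genes held 14.6 ± 0.763% in HET and 14.4 ± 0.342% in WT, and genes of late endosomes, lysosomes and autophagy 11.0 ± 0.176% in HET and 10.8 ± 0.1003% in WT. All 6 role shares overlapped between genotypes.

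**Figure D2:**
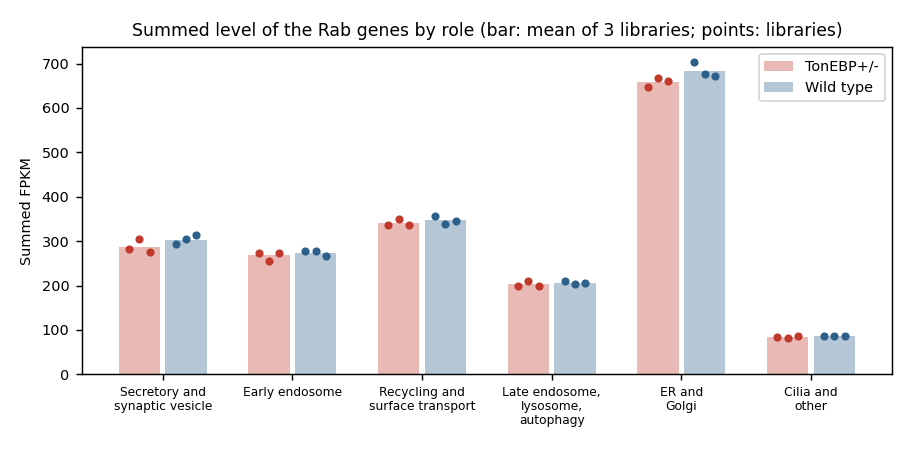
Summed FPKM of the Rab genes in 6 role groups, with bars from 0 for the mean of 3 libraries and a point for each library, TonEBP+/- left of wild type. In the endoplasmic reticulum and Golgi group the TonEBP+/- points (646.7 to 668 FPKM) lie below the wild-type points (671 to 702 FPKM), and in the other 5 groups the genotypes overlap. As a share of the Rab sum, that group overlaps between genotypes as well.

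Among the 8 Rab genes of secretory and synaptic vesicles, 0 passed the adjusted test, 5 differences were positive and 3 negative, and the median was 0.06. That median was -0.03 with the thalamus covariate, -0.01 with a stricter filter (a mean of at least 5 FPKM) and -0.01 without HET 2. Rab26 (chromosome 17, 24529054 to 24533747, GRCm38), which marks secretory granules and links synaptic vesicles to autophagy, was at 11.2, 11.2 and 10.6 FPKM in HET and 9.14, 8.32 and 9.17 FPKM in WT. Its HET values lay above its WT values, with a log2 difference of 0.28 (SE 0.0777, 95% interval 0.11 to 0.45, limma unadjusted p = 0.00495, adjusted p = 1.00, exact permutation p = 0.1). It ranked 43 by p among all genes tested. Of its 2852 annotated exon bases, 267 also belong to Traf7 on the same strand, which was at 8.61 ± 0.804 FPKM in HET and 8.44 ± 0.503 FPKM in WT (SD, n = 3 each).

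Rab3a, the main Rab of synaptic vesicles, was at 140.5, 161 and 151 FPKM in HET and 148, 154 and 162 FPKM in WT. These values overlapped (log2 difference -0.04, 95% interval -0.21 to 0.14). Rab3c, which sits on synaptic vesicles as well, was at 96.6, 103 and 85.1 FPKM in HET and 105, 108 and 108 FPKM in WT. All HET values of Rab3c were lower, HET 3 most (log2 difference -0.18, SE 0.0791, limma unadjusted p = 0.0513, adjusted p = 1.00, exact permutation p = 0.1). Without HET 3 the difference was -0.10 (limma unadjusted p = 0.235).

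Rab3b, a further vesicle Rab, was at 5.38, 6.85 and 6.33 FPKM in HET and 5.45, 4.44 and 5.07 FPKM in WT, and HET 1 lay within the WT range. Its log2 difference was 0.26 (SE 0.110, limma unadjusted p = 0.0389, adjusted p = 1.00) and 0.13 with the thalamus marker covariate. Rab3b made up 2.20, 2.51 and 2.57% in HET and 2.09, 1.66 and 1.82% in WT of the summed level of the 4 Rab3 genes, without overlap. That sum itself was 245, 273 and 246 FPKM in HET and 261, 268 and 278 FPKM in WT and overlapped. Rab27a and Rab27b, which dock secretory granules, summed to 12.4 to 14.8 FPKM in HET and 12.5 to 13.1 FPKM in WT.

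Rab37 (chromosome 11, 115091331 to 115162773, GRCm38), a Rab of secretory granules in mast cells, had the largest difference in size among the 54 Rab genes and was chosen after its values were seen. It was at 12.7, 5.74 and 7.17 FPKM in HET and 10.8, 14.7 and 12.3 FPKM in WT. HET 2 and HET 3 lay below all other libraries and HET 1 within the WT range (log2 difference -0.56, SE 0.270, 95% interval -1.22 to 0.09, limma adjusted p = 1.00, exact permutation p = 0.3). The same HET 2 and HET 3 were lowest in thalamus and habenula markers, of which 14 of 15 had a negative difference. With those markers as a covariate the difference of Rab37 was -0.10 (SE 0.159). The markers were low only in HET libraries, so this covariate is partly tied to genotype. A part of adjacent tissue in the level of Rab37 was not tested. Without HET 1 the difference of Rab37 was -0.86 (limma unadjusted p = 0.000208, adjusted p = 0.136), and without HET 2 it was -0.35. In whole tissue, fewer cells of a type and less RNA per cell cannot be told apart.

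**Figure D3:**
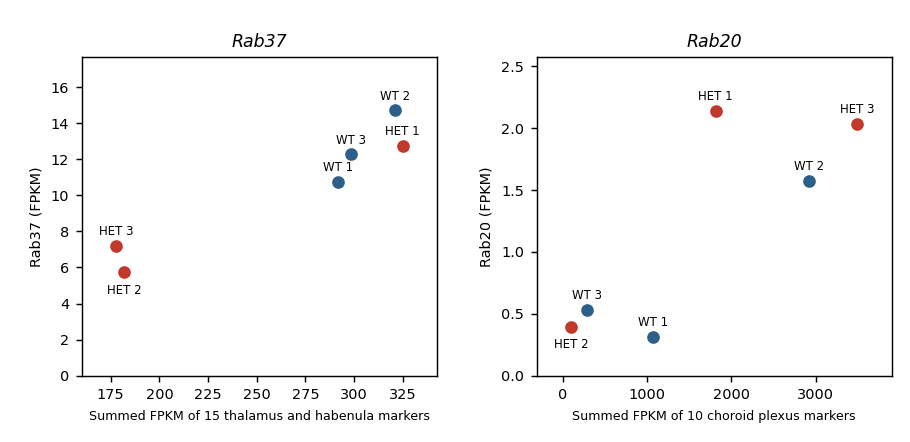
Left, Rab37 (FPKM) against the summed FPKM of 15 thalamus and habenula markers; right, Rab20 (FPKM) against the summed FPKM of 10 choroid plexus markers; 1 point per library (HET, TonEBP+/-; WT, wild type). HET 2 and HET 3 are lowest on both axes at left, and HET 1, HET 3 and WT 2 are highest on both axes at right.

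Early endosome Rab genes numbered 7, of which 0 passed, with 4 positive and 3 negative differences and a median of 0.01. The sign of that median was not stable: it was -0.0257 with the stricter filter, -0.00325 with median scaling, and -0.00818, -0.00719 and -0.00556 without HET 1, HET 3 and WT 3 in turn. Rab5c, which with Rab5a and Rab5b drives fusion of early endosomes, was at 70.9, 65.7 and 70.8 FPKM in HET and 69.8, 68.0 and 68.0 FPKM in WT. Rab5b was at 61.4, 61.0 and 62.2 FPKM in HET and 60.9, 62.6 and 59.1 FPKM in WT. Both overlapped between genotypes, with 95% intervals of -0.13 to 0.15 for Rab5c and -0.12 to 0.15 for Rab5b on the log2 scale.

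Rab5a was at 47.3, 49.9 and 49.8 FPKM in HET and 59.9, 52.1 and 53.1 FPKM in WT. Its HET values were all lower, and WT 1 was the highest (log2 difference -0.16, SE 0.0730, limma unadjusted p = 0.0513, adjusted p = 1.00, exact permutation p = 0.1). Without WT 1 the difference was -0.10 (limma unadjusted p = 0.205). Rab5a held 26.3, 28.3 and 27.2% in HET and 31.4, 28.5 and 29.4% in WT of the summed level of the 3 Rab5 genes, without overlap, although HET 2 and WT 2 were close.

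Rab20, which acts in phagosome and endosome maturation in macrophages, had the largest positive difference and the widest interval. It was at 2.14, 0.396 and 2.03 FPKM in HET and 0.314, 1.58 and 0.530 FPKM in WT, an estimated 5 to 37 fragments per library. HET 1, HET 3 and WT 2 were high and the other libraries low (log2 difference 0.45, SE 0.383, limma adjusted p = 1.00). The difference depended on single libraries: it was 0.84 without HET 2 (limma unadjusted p = 0.0140, adjusted p = 0.999), 0.74 without WT 2, 0.25 without HET 1, 0.28 without HET 3 and 0.26 without WT 1. HET 1, HET 3 and WT 2 were also the highest in choroid plexus markers, whose log2 differences (7 positive and 3 negative of 10) were all smaller than their standard errors. Their part in the level of Rab20 was not tested.

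Of the 11 tested Rab genes of recycling and surface transport, 0 passed, 10 differences were negative and 1 positive, and the median was -0.06. The negative ones numbered 7 without HET 1, 7 without WT 2 and 8 with quantile normalization. Rab4a (chromosome 8, 123805846 to 123835291, GRCm38), which directs fast recycling from early endosomes, was at 13.0, 13.3 and 13.9 FPKM in HET and 17.03, 14.5 and 15.3 FPKM in WT. All its HET values were lower (log2 difference -0.20, SE 0.0802, 95% interval -0.38 to -0.02, limma unadjusted p = 0.0321, adjusted p = 1.00, exact permutation p = 0.1). Its paralog Rab4b was at 23.3 to 24.8 FPKM in HET and 22.3 to 25.3 FPKM in WT. Rab4a held 35.8, 36.3 and 35.9% in HET and 41.1, 36.4 and 40.6% in WT of the Rab4 sum, without overlap, although WT 2 lay beside the HET libraries.

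Rab10, which carries vesicles to the plasma membrane and is a substrate of the kinase LRRK2, was at 52.9, 53.1 and 52.2 FPKM in HET and 57.1, 54.4 and 55.4 FPKM in WT. The genotypes lay apart by little (log2 difference -0.08, SE 0.0608, limma unadjusted p = 0.239, adjusted p = 1.00, exact permutation p = 0.1). Rab11a, the Rab of the recycling endosome, was at 65.4, 69.7 and 67.0 FPKM in HET and 69.4, 68.2 and 67.2 FPKM in WT and overlapped (95% interval -0.16 to 0.12). Rab15, which acts in endosomal recycling, was the single member with a positive difference, at 57.9, 62.6 and 52.2 FPKM in HET and 54.5, 51.4 and 52.6 FPKM in WT. WT values of Rab15 lay within or below the HET range (log2 difference 0.12, SE 0.0778, limma adjusted p = 1.00, 0.06 without HET 2 and 0.19 without HET 3).

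**Figure D4:**
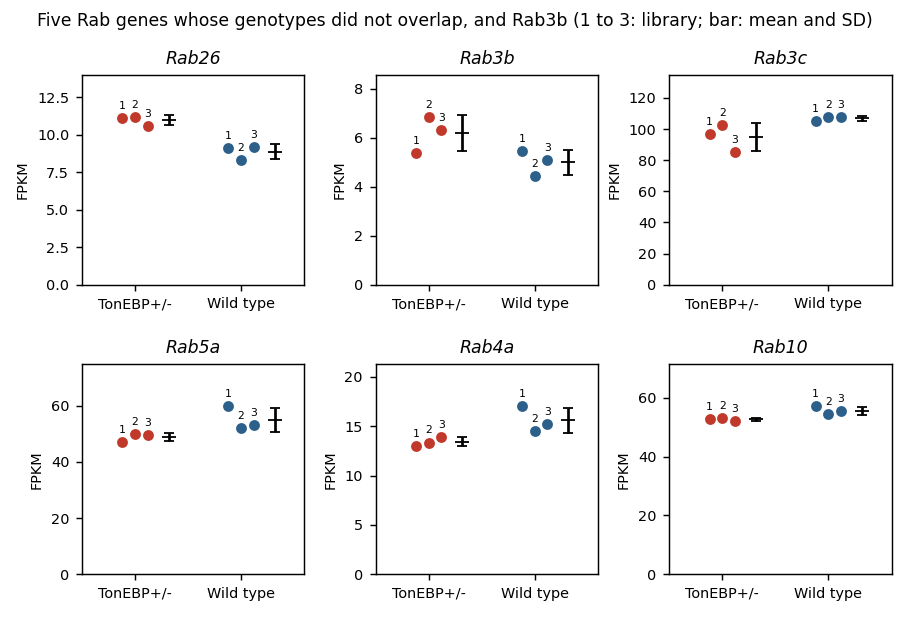
FPKM in each library (points, numbered by library) with mean and SD, TonEBP+/- left and wild type right, for the 5 Rab genes whose genotypes do not overlap and for Rab3b; all axes start at 0. Rab26 is higher and Rab3c, Rab5a, Rab4a and Rab10 are lower in TonEBP+/-, and Rab3b overlaps through HET 1.

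In the group of late endosomes, lysosomes and autophagy, 0 of 8 tested genes passed, 4 differences were positive and 4 negative, and they ran from -0.09 to 0.08. Rab7, which directs late endosomes to lysosomes, was at 98.1, 104 and 99.6 FPKM in HET and 105, 99.1 and 105 FPKM in WT (log2 difference -0.03, 95% interval -0.18 to 0.11). Rab9, which returns cargo from late endosomes to the Golgi, was at 28.1, 24.7 and 26.9 FPKM in HET and 23.4, 25.4 and 26.2 FPKM in WT. Its paralog Rab9b was at 13.9 to 16.3 FPKM in HET and 15.4 to 16.2 FPKM in WT. Rab12, another LRRK2 substrate, was at 32.1 to 35.4 FPKM in HET and 32.2 to 39.8 FPKM in WT. None of these 8 genes lay apart between genotypes, beside 8.52% of all genes tested. With 8 genes, nothing is read from this.

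The group of the endoplasmic reticulum and Golgi had 14 tested genes, of which 0 passed, with 11 negative and 3 positive differences and a median of -0.04. The negative ones numbered 8 without HET 3 and 8 with the thalamus covariate. Rab6a, which directs traffic from the Golgi back to the endoplasmic reticulum, was at 149, 162 and 152 FPKM in HET and 170.2, 154 and 163 FPKM in WT. Rab2a, which acts between the endoplasmic reticulum and the Golgi, was at 150.3, 146 and 164 FPKM in HET and 159, 169 and 157 FPKM in WT. Rab1 (Rab1a in RefSeq), which moves cargo out of the endoplasmic reticulum, was at 40.1, 49.0 and 44.6 FPKM in HET and 56.2, 43.9 and 46.2 FPKM in WT, with WT 1 the highest (log2 difference -0.12, SE 0.105). That difference was -0.02 without WT 1, -0.05 without HET 1, -0.19 without HET 2, -0.19 without WT 2 and -0.24 with the thalamus covariate. The genotypes overlapped in all 14 genes. Over all genes tested 8.52% lay apart, and nothing is read from a count of 0 in so short a list.

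Among the 6 tested genes of cilia and other roles, 0 passed, with 2 positive and 4 negative differences. None lay apart, beside 8.52% of all genes tested, and with 6 genes nothing is read from this. Rab28, which acts in cilia, was at 39.4 to 46.4 FPKM in HET and 42.6 to 47.9 FPKM in WT. Rab40b, whose product belongs to a family of ubiquitin ligase adaptors, was at 14.3 to 16.4 FPKM in HET and 14.6 to 16.7 FPKM in WT. Rab42 was at 1.05, 2.14 and 1.19 FPKM in HET and 1.84, 0.768 and 0.173 FPKM in WT, an estimated 1 to 15 fragments per library (log2 difference 0.42, SE 0.318, limma adjusted p = 1.00). It was 0.74 without WT 1 (limma unadjusted p = 0.0141, adjusted p = 1.00), 0.23 without HET 2 and 0.11 without WT 3.

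**Figure D5:**
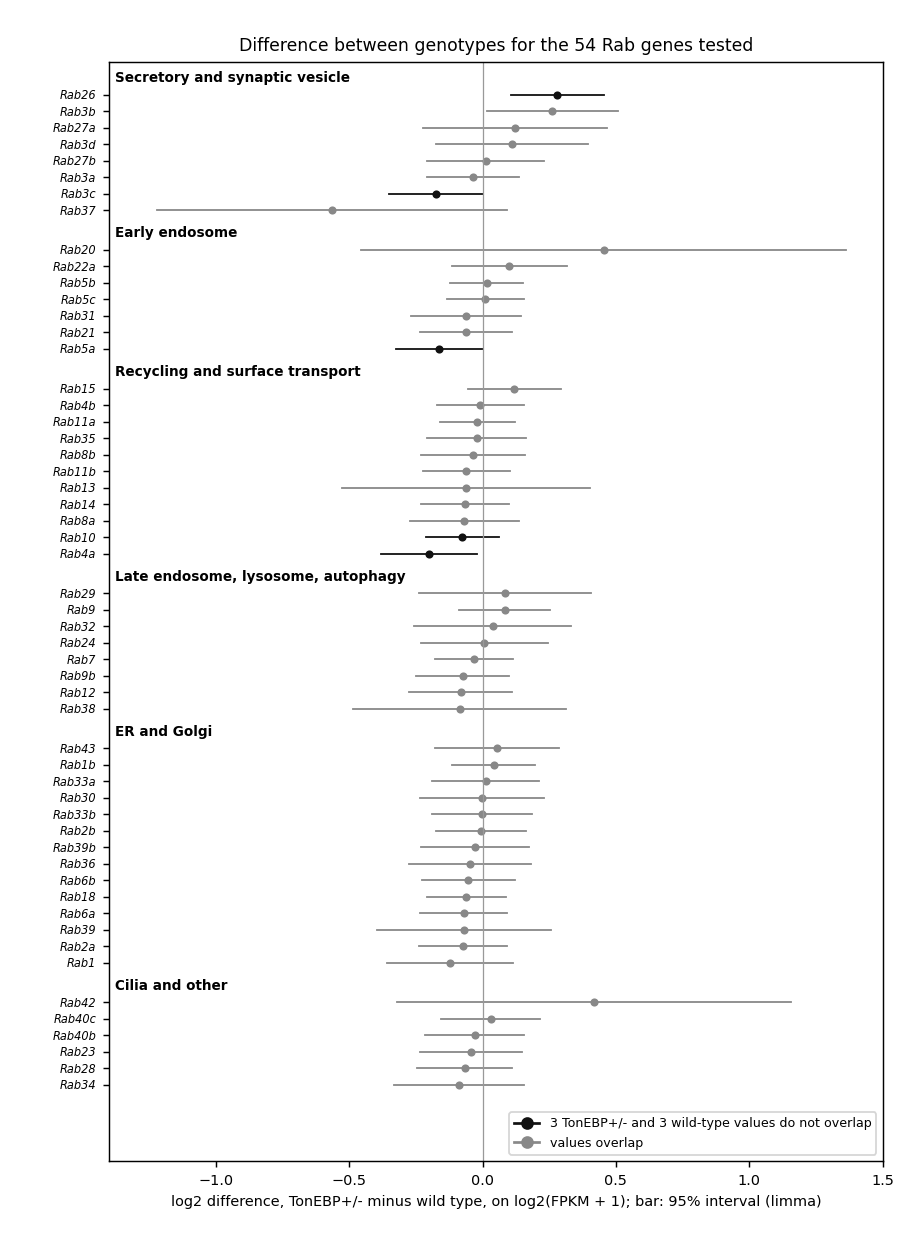
Difference between genotypes (TonEBP+/- minus wild type, log2(FPKM + 1) scale) of the 54 tested Rab genes by role, with 95% intervals from limma; black marks the 5 genes whose genotypes do not overlap. In 12 of the 54 genes the difference is at least 0.1 in size, and the widest intervals are those of Rab20, Rab42 and Rab37.

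Shares of paralogs within a library do not depend on the scaling of libraries. In 13 families with at least 2 tested members, 4 of 29 member shares did not overlap between genotypes, those of Rab3b and Rab4b (higher in HET) and of Rab5a and Rab4a (lower in HET). The Rab4a and Rab4b shares are complements. These are 13.8% of the member shares, beside the 8.52% of single genes without overlap among all genes tested, and nothing is read from this count. Rab6a held 57.3 ± 1.34% in HET and 57.6 ± 0.517% in WT of the Rab6 sum, and Rab11a 79.1 ± 1.06% in HET and 78.6 ± 0.579% in WT of the Rab11 sum (SD, n = 3 each). In GENCODE transcripts, 29 of the 59 Rab genes had no stretch of 50 bases in common with another gene, and no Rab gene had one in common with a paralog of its own family. Such stretches, counted on either strand, made up 74.5% of Rab43, 58.08% of Rab4b, 56.99% of Rab2b and 49.6% of Rab24, through neighbouring genes, 22.93% of Rab20, and at least 10% in 10 Rab genes in all. Exons of Rab43 and Rab4b overlap genes on the same strand. Those of Rab2b, Rab24 and Rab20 overlap only genes on the opposite strand, which strand-specific libraries can separate if strand was used in counting. The sources used here do not say how such reads were assigned, and the levels of these 5 named genes are uncertain.

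Genes that run the Rab cycle were counted next. A list of genes for GDI, escort and prenylation, which also held Rabif, Rabac1, Yipf5 and Yif1b, had 10 tested genes. Of these, 0 passed, 8 differences were negative and 2 positive. Chml, which encodes an escort protein, was at 4.46, 3.69 and 3.77 FPKM in HET and 5.17, 5.23 and 4.90 FPKM in WT. Its HET values were all lower (log2 difference -0.30, SE 0.0987, limma unadjusted p = 0.0136, adjusted p = 1.00). Rabggta, a subunit of the geranylgeranyl transferase, was at 9.44 to 9.79 FPKM in HET and 7.92 to 9.17 FPKM in WT, with HET above WT in all libraries (log2 difference 0.15). Yipf5, which encodes a Golgi membrane protein, overlapped at 17.03 to 19.7 FPKM in HET and 19.1 to 21.0 FPKM in WT. Genes without overlap (Chml and Gdi2 lower, Rabggta higher in HET) made up 30% of this short list, beside 8.52% of all genes tested. Nothing is read from this share.

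Of 32 tested exchange factor genes, 0 passed, with 18 positive and 14 negative differences. Mon1a, part of the Rab7 exchange factor, was at 9.04 to 10.1 FPKM in HET and 7.77 to 9.08 FPKM in WT, and Rin2, an exchange factor gene for Rab5, at 11.4 to 13.4 FPKM in HET and 9.502 to 11.5 FPKM in WT. Dennd2a, which encodes a DENN domain protein, was at 8.74 to 9.77 FPKM in HET and 7.99 to 8.998 FPKM in WT. All 3 genes overlapped. Of 36 tested genes of GTPase-activating proteins, 0 passed, with 19 positive and 17 negative differences. Tbc1d19 was at 10.1 to 10.8 FPKM in HET and 11.6 to 12.5 FPKM in WT, Tbc1d7, a partner of the Tsc complex, at 5.07 to 5.70 FPKM in HET and 5.86 to 6.52 FPKM in WT, and Tbc1d10a at 9.34 to 10.7 FPKM in HET and 8.97 to 9.31 FPKM in WT. The genotypes of these 3 did not overlap, the first and second lower and Tbc1d10a higher in HET, with limma adjusted p = 1.00 for each. They were picked by their small p. Genes without overlap made up 11.1% of this list, beside 8.52% of all genes tested.

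A list of effector genes, which also held Rims3, Doc2a, Garnl3 and the kinase gene Lrrk2, had 48 tested genes. Of these, 0 passed, with 21 positive and 27 negative differences. Rims1, the active zone scaffold that binds Rab3 on synaptic vesicles, had the smallest p of all genes tested, at 120.4, 109 and 114 FPKM in HET and 67.3, 82.3 and 62.8 FPKM in WT (log2 difference 0.69, SE 0.0988, limma adjusted p = 0.383). Rph3al, which encodes another Rab3 effector, was at 1.35 to 1.87 FPKM in HET and 0.948 to 1.26 FPKM in WT, with HET above WT (log2 difference 0.31, SE 0.131, limma adjusted p = 1.00). Rims3, whose product lacks the Rab-binding part of RIM, was at 38.6, 28.1 and 21.4 FPKM in HET and 38.9, 32.4 and 35.5 FPKM in WT, and HET 1 lay within the WT range. Genes without overlap (Rims1 and Rph3al) made up 4.17% of the tested genes of this list, beside 8.52% of all genes tested.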

How the data were processed

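Hippocampal RNA of 6 samples went into strand-specific libraries (NEBNext Ultra II Directional), per the labels' protocols. TopHat and mm10 are named in the submitters' processing notes, and the annotation and quantifier are not stated there. The authors deposited log2 values, 1 table per library. No header names the unit, and log2(FPKM + 1) was inferred from the values. If it is wrong, the FPKM levels and the filter change.

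Values were fitted in limma 3.58.1 (R 4.3.3; genotype only, trend and robust options) for 13122 genes with at least 1 FPKM in 3 or more libraries, with Benjamini-Hochberg adjustment at 0.05. Differences of low genes are understated on this scale. The fit was tested on simulated data. Members, lists, markers and tests were chosen with earlier results of these data known. Named genes are, per role, the 2 highest and the 2 with the smallest p, every member without overlap or with an unadjusted p under 0.05, and the 3 smallest p of each cycle list. Rab37, and paralogs and overlapping genes set beside a named gene, were chosen after their values were seen. Names and promoters come from RefSeq (GRCm38.p6), exons and shared stretches from GENCODE. Plots used matplotlib 3.10.9 (Python 3.11.15).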

Additional observations from a re-analysis of the deposited data

How the results depend on the processing

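No Rab gene passed under any alternative run: quantile normalization, median scaling, unfiltered genes, a filter at a mean of 5 FPKM, a pseudocount of 0.1, the robust option off, a replicate block, the thalamus covariate, an adjusted p under 0.1, and each library left out. The smallest adjusted p of a Rab gene was 0.136 (limma, Rab37 without HET 1). Over all genes the count was 0 except with a library left out, where it was 0 to 8 (8 without HET 1, and 1 each without HET 3, WT 1 or WT 2). With a library left out, 8 to 11 of 54 Rab genes and 2036 to 2841 of 13122 genes tested had no overlap. Fewer samples can overlap less, and nothing is read from these counts. The Rab median with a library left out was -0.0309 to -0.0168. Of 306 values of the 22 named Rab genes, 297 kept their direction. Unfiltered genes, the stricter filter, the robust option off and the replicate block leave a difference unchanged, and values under these settings could not change sign. The other 9 values, in 5 genes, changed sign, at most 0.0234 in size, and the cause was not tested. These were Rab5c with median scaling (-0.00325), Rab11a with quantile normalization (0.000259), and, over libraries left out, Rab3a (-0.0839 to 0.0146), Rab5c (-0.00818 to 0.0462), Rab5b (-0.00556 to 0.0349), Rab11a (-0.0442 to 0.00133) and Rab40b (-0.0852 to 0.0234). The size of most differences was not stable: it moved by over 1.5 times, or in sign, under some alternative in 19 of the 22 genes, and with a library left out in 18; Rab26, Rab4a and Rab10 did not move so far under any. Deviations from the genotype mean correlated at -0.247 to -0.157 between samples with the same number, and at 0.0493 to 0.169 between other pairs. Centring within 3 samples ties these values together, so they cannot tell whether same-numbered samples shared a litter or batch. With the replicate block, 0 genes passed. There 1 of 54 Rab genes, Rab26, had an unadjusted limma p under 0.05 (0.016), beside 2.93% of all genes. Overlap counts have no value with a block or covariate. The differences of Rab20 and Rab42, both low, varied with the setting. They were 0.813 (Rab20) and 0.949 (Rab42) with a pseudocount of 0.1, and 0.761 (Rab20) and 0.265 (Rab42) with the thalamus covariate. The part of low depth in this was not tested.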
